A study of Mus musculus with 24 samples.

Results

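KIT+ differentiating spermatogonia (dSPG) were compared with THY1+ undifferentiated spermatogonia (uSPG) of wild-type (WT) mice, in the libraries made as controls for Zbtb16 null mice. The members are 6 of the 24 libraries of the series, 3 WT THY1+ and 3 WT KIT+, taken by the fraction and genotype in their labels. All came from testes at postnatal day 7. The WT mice were littermates of mice homozygous for the luxoid allele of Zbtb16 and carried neither a transgene nor a treatment. Testes of 3 mice were pooled for each isolation, and each fraction was taken with magnetic beads that carried an antibody to 1 surface protein, THY1 (CD90.2) or KIT (CD117). A fraction is therefore a bead-bound population, in which fewer cells of a type and less RNA per cell cannot be told apart. The series also holds null libraries of both fractions (6 in this set), which were used for 1 comparison, and libraries of a Sox3 conditional knockout, which were not used here.

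Spermatogonia are the mitotic germ cells that line the seminiferous tubule. The undifferentiated pool holds the stem cells, which self-renew under glial cell line-derived neurotrophic factor (GDNF) and fibroblast growth factor (FGF) from Sertoli and other somatic cells. Retinoic acid drives the step to differentiating spermatogonia, which switch on the receptor tyrosine kinase KIT, divide a set number of times and then enter meiosis. THY1 is also carried by mouse T cells, and KIT by Leydig cells and mast cells, so that beads against either protein can hold other cells.

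Expression was measured as FPKM, fragments per kilobase of transcript scaled to the mapped reads of the library, and differences are on the scale of log2(FPKM + 0.1). Values are means ± SD over n = 3 libraries, and the 3 values of a group are given in the order of replicates 1, 2 and 3. A gene was called changed where limma (two-sided, Benjamini-Hochberg adjustment over all genes tested) gave an adjusted p no larger than 0.05 and the fractions differed by 1.5-fold or more. By the step that 1 read makes in the FPKM values, each WT library held an estimated 28500000 to 35200000 reads, and 15707 to 16585 genes reached 1 FPKM in each. The small nuclear RNA Rn7sk was the most abundant gene in all 6, with 15.4% to 24.5% of the summed FPKM. WT KIT+ replicate 1 held the highest share of Rn7sk, and its 10 most abundant genes took 49.7% against 36.4% to 44.6% in the other libraries.

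The sorting markers followed the labels. Thy1 (ENSMUSG00000032011, chromosome 9 from 44043384 to 44048579 of GRCm38, plus strand) was at 3.29, 4.41 and 4.14 FPKM in THY1+ libraries and at 0.344, 0.524 and 0.156 FPKM in KIT+ libraries. Kit (ENSMUSG00000005672, chromosome 5 from 75574916 to 75656722, plus strand) was at 13.8, 21.1 and 14.6 FPKM in THY1+ and at 55.0, 69.7 and 52.5 FPKM in KIT+ libraries. Neither marker overlapped between the fractions. The log2 fold change of KIT+ against THY1+ was -3.28 for Thy1 (SE 0.29, adjusted p 1.16e-05) and 1.85 for Kit (SE 0.19, adjusted p 3.15e-05). Kit RNA was at 16.5 ± 4.02 FPKM in the THY1+ fraction, well above the level of Thy1 RNA in the KIT+ fraction (0.341 ± 0.184 FPKM). T cell genes fell with Thy1 and Leydig cell genes rose with Kit, and their part in the change of either marker was not tested.

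Among the 22374 genes tested, the share called was 21.2%. KIT+ dSPG were higher for 7.21% and lower for 14.0%, and 42.7% of all genes were without overlap between the fractions. Markers of other cells stood among the largest changes. Among genes that fell by 4 or more on the log2 scale, 127 in all, 22 were in the marker lists of other cell types and 0 were in the lists of germ cell regulators, signalling, metabolism, chromatin, division, germ cell and immediate early genes. Of the 7 genes that rose by as much, 6 were in the Leydig cell list, and the other was Cst8, a cystatin family gene (3.46, 4.25 and 3.96 FPKM in THY1+ and 55.1, 84.7 and 84.1 FPKM in KIT+ libraries). Most calls were smaller. Of the lower ones 1276 fell by less than 1 and 1336 by 1 to 2 on the log2 scale, and of the higher ones 854 and 593 rose by as much. Those in the lists of spermatogonial genes lay mainly in that range, as the plot of change against level shows.

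**Figure D1:**
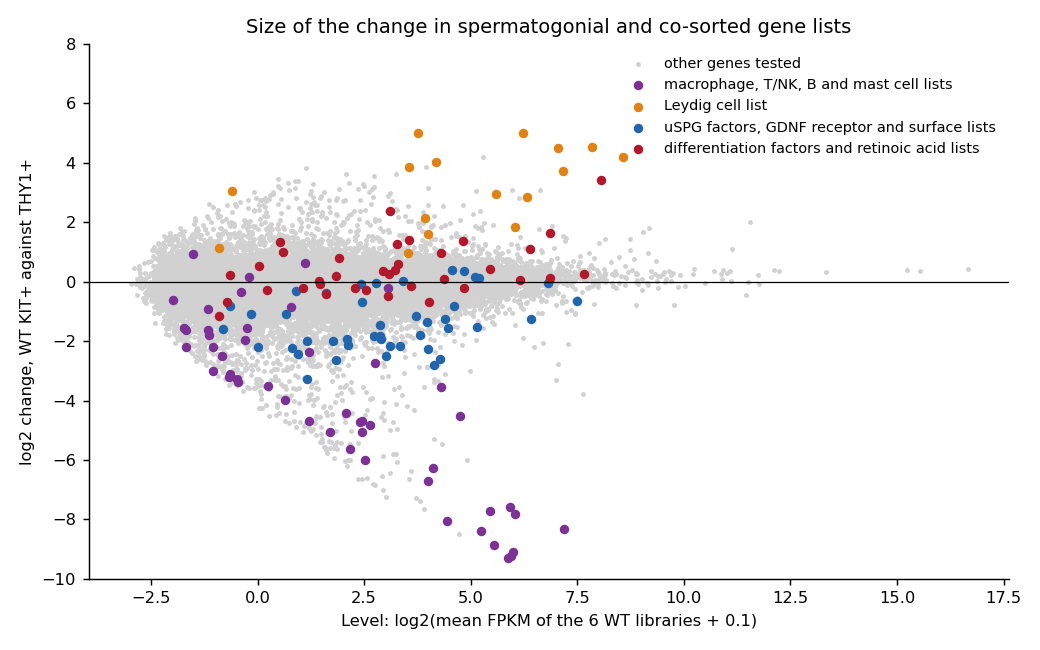
Each point is 1 of the 22374 genes tested, with its level on the x axis (log2 of the mean FPKM of the 6 WT libraries plus 0.1) and the log2 change of WT KIT+ against THY1+ on the y axis, and colours mark members of the named lists. Immune cell markers reach below -9, Leydig cell markers reach 5.01, and the lists of uSPG factors and of GDNF receptor and surface genes lie between -3.28 and 0.39.

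Macrophage markers were far higher in the THY1+ fraction. All 20 genes of the list were called lower in KIT+ dSPG, with a median log2 change of -7.15. Their summed level was 1459, 1473 and 1276 FPKM in the THY1+ libraries and 9.02, 9.93 and 11.03 FPKM in the KIT+ libraries, a 140-fold lower mean. The complement gene C1qa was at 128, 127 and 116 FPKM in THY1+ and at 0.101, 0.219 and 0.0326 FPKM in KIT+ libraries. Emr1, which encodes the F4/80 antigen, was at 43.4 ± 5.34 and 0.0649 ± 0.0282 FPKM. Csf1r, the receptor of macrophage growth factor, was at 51.3 and 2.14 FPKM.

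The genes that fell most outside the marker lists were Fcrls, Ccl7, Ccl2, Cbr2, Ms4a6d, Ms4a6c, Xcl1, AF251705, Ccl12 and Mir511. Ccl2, Ccl7 and Ccl12 encode chemokines that recruit monocytes, and Xcl1 encodes one made by T and NK cells. Ccl2 was at 30.8, 22.0 and 30.6 FPKM in THY1+ libraries and held no more than 3 reads in any KIT+ library, so that it was at least 325-fold lower. The same floor of 3 reads per library gave at least 286-fold for Ms4a6d, at least 287-fold for Ms4a6c, at least 245-fold for Ccl7 and at least 8.70-fold for the short transcript of the microRNA gene Mir511. These bounds cover counting error only. None of the 10 is in a cell type list.

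Genes of T and NK, B and mast cells were mostly lower in KIT+ dSPG as well. In the list of T and NK cells 14 of 16 genes were called lower (9 of 16 with a pseudocount of 1), and the summed level was 27.4 to 31.6 FPKM in THY1+ and 10.3 to 11.1 FPKM in KIT+ libraries. Cd3g, a chain of the T cell receptor complex, was at 6.15 ± 0.215 and 0.0914 ± 0.0354 FPKM, while its partner Cd3e was at 0.747 and 0.576 FPKM and was not a call. Of 8 mast cell genes 6 were lower and 1, Hdc, which makes histamine, was higher (but not without WT KIT+ replicate 2 or WT THY1+ replicate 1), with sums of 29.6 to 51.8 and 3.71 to 5.18 FPKM. Mcpt4, a mast cell protease, was at 10.5 ± 2.34 FPKM in the THY1+ fraction and 0.215 ± 0.0671 FPKM in the KIT+ fraction, although mast cells carry KIT. B cell genes summed to 13.5 to 16.4 and 2.33 to 2.59 FPKM, with 3 of 5 lower and 1 higher. In the red blood cell list 0 of 5 genes were calls (limma, 2 at an unadjusted p under 0.05, and 2 calls higher without WT KIT+ replicate 1 or WT THY1+ replicate 2), and its sum ranged from 8.76 to 23.9 FPKM in THY1+ and from 14.7 to 50.3 FPKM in KIT+ libraries.

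Leydig cell genes were the reverse. All 16 were called higher in KIT+ dSPG, with a median log2 change of 3.38, and their sum was 176, 192 and 153 FPKM in THY1+ and 1578, 2875 and 2497 FPKM in KIT+ libraries. Aldh3a1, an aldehyde dehydrogenase, was at 0.940, 0.617 and 0.575 FPKM in THY1+ and at 18.5, 34.5 and 26.1 FPKM in KIT+ libraries. Cyp17a1, which makes androgen precursors, rose by 4.54 on the log2 scale (SE 0.29, adjusted p 8.76e-07), and Insl3, a Leydig cell hormone, by 4.49 (SE 0.22, adjusted p 1.21e-07). WT KIT+ replicate 1 held the lowest Leydig sum of its group.

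Sertoli cell genes, 16 in all, gave 7 calls higher and 2 lower, and the number higher fell to 4 without WT KIT+ replicate 2 or without WT THY1+ replicate 3. Their sum was 71.0 to 117 FPKM in THY1+ and 125 to 175 FPKM in KIT+ libraries. Gdnf, the ligand that sustains stem cells, was at 0.625, 0.825 and 0.436 FPKM in THY1+ and 2.14, 6.58 and 3.03 FPKM in KIT+ libraries. The defining Sertoli genes Sox9 (0.874 and 0.767 FPKM) and Amh (2.37 and 3.49 FPKM) were low in both fractions and were not calls, while Wt1 was at 2.58 and 4.61 FPKM and was called higher. Trf, which encodes transferrin, went the other way and was at 27.3 ± 4.39 and 2.25 ± 0.527 FPKM. Peritubular and stromal genes were lower in 9 of 16 cases (6 without WT KIT+ replicate 1 or without WT THY1+ replicate 1), with a sum of 671 to 950 FPKM in THY1+ and 325 to 611 FPKM in KIT+ libraries. Among them Igf1, which encodes insulin-like growth factor 1, was at 38.8 ± 3.11 and 10.1 ± 3.26 FPKM, and the proteoglycan gene Dcn was at 237 ± 55.1 and 112 ± 23.0 FPKM. Endothelial genes were lower in 2 of 12 cases (16.7%, near the 14.0% of all genes), and 1 of 12 without WT KIT+ replicate 1 or without WT THY1+ replicate 1. Their sums were 27.9 to 38.0 FPKM in THY1+ and 19.3 to 38.8 FPKM in KIT+ libraries.

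**Figure D2:**
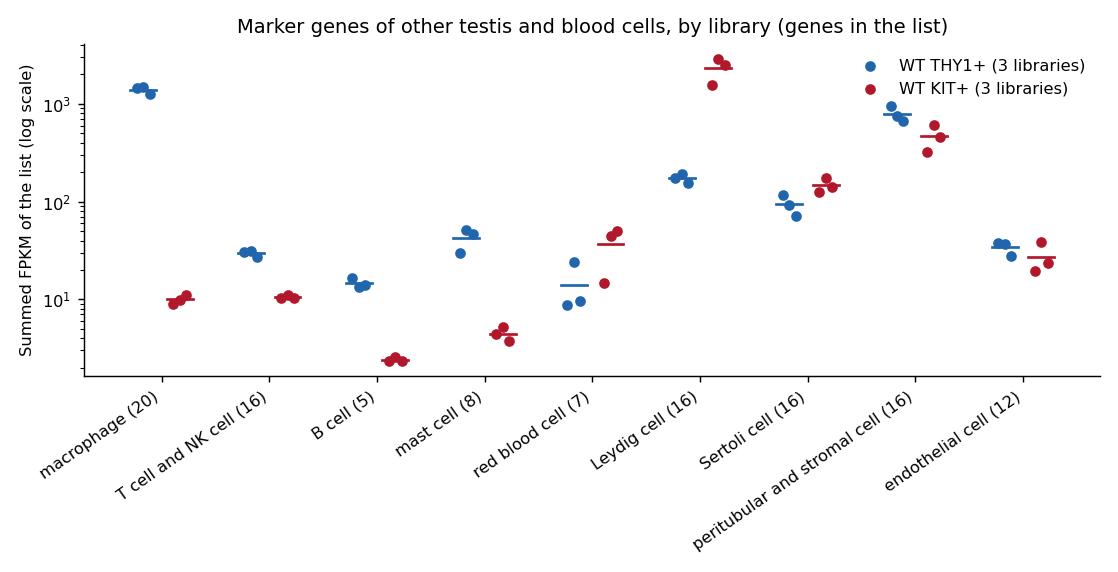
Points give the summed FPKM of each marker list in each of the 6 WT libraries on a log axis, and bars give the mean of 3 libraries. Macrophage genes sum to 1276 to 1473 FPKM in THY1+ and 9.02 to 11.03 FPKM in KIT+ libraries, while Leydig cell genes sum to 153 to 192 and 1578 to 2875 FPKM.

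Transcription factors of uSPG were the spermatogonial group that fell most often. Of 24 tested, 19 were called lower in KIT+ dSPG and 0 higher (limma), a share of 79.2% against 14.0% of all genes, with a median log2 change of -1.82 against -0.03 over all genes. Id4, an inhibitor of basic helix-loop-helix factors that marks stem cells, was at 14.8, 12.2 and 13.7 FPKM in THY1+ and 1.56, 3.01 and 2.61 FPKM in KIT+ libraries. The forkhead gene Foxc2 was at 7.60, 6.17 and 4.27 FPKM and at 0.580, 1.45 and 0.734 FPKM. Their log2 fold changes were -2.50 (limma, SE 0.19, adjusted p 3.50e-06) and -2.64 (SE 0.42, adjusted p 0.000761).

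Factors that act downstream of GDNF in stem cells behaved likewise. The LIM homeobox gene Lhx1 was at 3.15 ± 0.766 FPKM in THY1+ and 0.515 ± 0.231 FPKM in KIT+ libraries, and the ETS factor gene Etv5 at 16.2 ± 3.36 and 3.84 ± 1.96 FPKM. The T-box genes Eomes and T, which mark small subsets of uSPG, were at 1.55 ± 0.381 and 2.77 ± 0.535 FPKM in THY1+ and at 0.249 ± 0.0256 and 0.516 ± 0.178 FPKM in KIT+ libraries. Glis3, a zinc finger factor, fell from 26.2 ± 2.91 to 5.55 ± 1.63 FPKM and Pou5f1, a pluripotency factor, from 10.2 ± 0.847 to 2.85 ± 0.807 FPKM. The rule that named these genes asks for groups without overlap, so their separation was set by the choice.

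Zbtb16 itself, the BTB zinc finger factor that the null mice lack, was at 55.7, 58.7 and 42.0 FPKM in THY1+ and 14.4, 23.0 and 17.1 FPKM in KIT+ libraries. Its log2 fold change was -1.53 (SE 0.17, adjusted p 5.29e-05). Foxo1, a stem cell factor under PI3K control, fell by 1.15 on the log2 scale (SE 0.26, adjusted p 0.00714). Taf4b (32.0 ± 0.934 and 36.1 ± 5.12 FPKM) and Bmi1 (24.9 ± 3.56 and 32.3 ± 5.66 FPKM) were members of the list that overlapped between the fractions and were not calls.

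**Figure D3:**
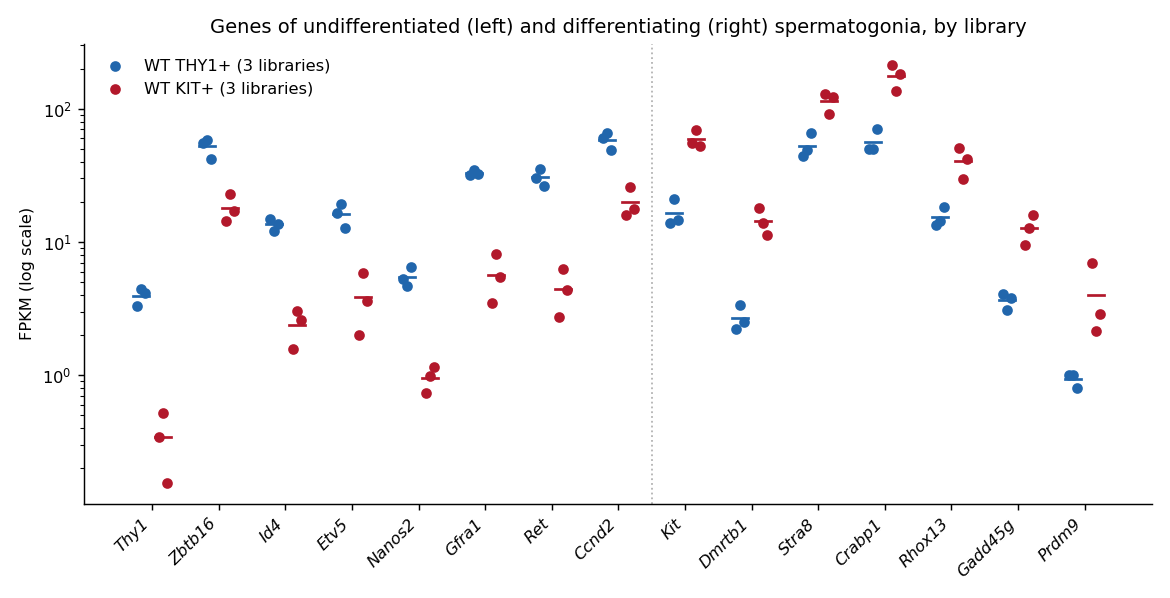
Points are FPKM in single WT libraries on a log axis and bars are means of 3 libraries, for genes of uSPG to the left of the dotted line and genes of dSPG to its right. Thy1, Kit and Zbtb16 were named as markers. The other genes drawn are calls named by a rule that asks for no overlap, so their separation was set by the choice. Kit was at 13.8 to 21.1 FPKM in THY1+ and 52.5 to 69.7 FPKM in KIT+ libraries.

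Of 22 RNA-binding regulators tested, 6 were called lower, 27.3% against 14.0% of all genes, and 1, Lin28b, was called higher. Nanos2, a translational repressor that keeps germ cells undifferentiated, was at 5.24, 4.70 and 6.52 FPKM in THY1+ and 0.731, 0.987 and 1.15 FPKM in KIT+ libraries. Its log2 fold change was -2.41 (SE 0.19, adjusted p 3.82e-06). Nanos3 fell by 1.61, Trim71 by 1.17, Lin28a by 0.92 and Igf2bp1 by 0.89 on the log2 scale, and the count of 6 was the same whichever WT library was left out. The number higher was 3 without WT KIT+ replicate 2, 2 without WT THY1+ replicate 3 and 0 without WT KIT+ replicate 1 or 3 or WT THY1+ replicate 1. The abundant germ cell helicase Ddx4 (189 ± 12.4 and 158 ± 3.12 FPKM) and the translation regulator Dazl (428 ± 54.0 and 508 ± 76.0 FPKM) were not calls. The 6 genes of inhibitor of DNA binding and E proteins outside Id4 gave 0 calls (limma, 1 at an unadjusted p under 0.05, and 1 call lower without WT THY1+ replicate 2), with Id2 at 24 ± 4.55 and 19.8 ± 2.73 FPKM and its partner Tcf3 at 28.0 ± 4.58 and 25.6 ± 4.10 FPKM.

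Receptors and surface proteins of stem cells fell together with these factors. In the list of GDNF receptor and surface genes 13 of 19 were called lower (68.4% against 14.0% of all genes) and 0 higher (limma). The median log2 change was -1.25. The 13 genes called lower hold Thy1, the antigen of the THY1+ sort, and the other 12 were not sorted on. Gfra1, which binds GDNF, was at 31.6, 35 and 32.4 FPKM in THY1+ and 3.50, 8.06 and 5.43 FPKM in KIT+ libraries. Ret, the signalling subunit of the same receptor, was at 30.2, 35.1 and 26.2 FPKM and at 2.75, 6.24 and 4.39 FPKM. Their log2 fold changes were -2.60 (SE 0.24, adjusted p 1.70e-05) for Gfra1 and -2.81 (SE 0.30, adjusted p 4.80e-05) for Ret. The adhesion gene Cdh1 fell by 2.01 and the tetraspanin gene Tspan8 by 2.13. Mcam, an adhesion molecule, was high in both fractions at 119 ± 12.9 and 50.3 ± 7.61 FPKM and was called lower, while the integrin chain Itgb1 (114 ± 6.60 and 112 ± 7.53 FPKM) overlapped.

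Genes that FGF and the MAP kinase pathway induce, many of which feed back on it, were lower in 11 of 21 cases (7 without WT KIT+ replicate 1). That is 52.4% against 14.0% of all genes. In 3 cases (14.3% against 7.21%) they were higher (1 without WT KIT+ replicate 2 or 3 or without WT THY1+ replicate 1 or 3). Dusp6, a phosphatase of ERK kinases, was at 54.5, 56.5 and 52.6 FPKM in THY1+ and 9.57, 17.9 and 16.2 FPKM in KIT+ libraries. Etv4, an ETS factor downstream of the pathway, was at 9.87 ± 1.04 and 2.72 ± 0.981 FPKM. The inhibitors Spry4 and Il17rd fell by 1.83 and 1.87 on the log2 scale (SE 0.37 and 0.20, adjusted p 0.00362 and 4.56e-05). Mapk3, one of the ERK kinases, was called lower (25.6 ± 0.587 and 16.5 ± 3.29 FPKM), whereas Map2k1 (24.9 ± 1.85 and 21.3 ± 1.98 FPKM), which acts upstream, was not a call. The 3 genes called higher were the FGF receptors Fgfr2 (3.07 ± 0.365 and 6.69 ± 1.61 FPKM), Fgfr3 (1.59 ± 0.246 and 2.61 ± 0.496 FPKM) and Fgfr4 (0.319 ± 0.0842 and 0.967 ± 0.372 FPKM). Macrophage sums moved with these genes, and their part in the change of genes that leukocytes also express was not tested.

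WNT and BMP/TGF-beta genes were called higher in 1 of 40 cases (2.5%) and lower in 8 (20% against 14.0% of all genes). This count was unstable. It was 2 without WT KIT+ replicate 1, WT THY1+ replicate 1 or WT THY1+ replicate 2, 4 without WT KIT+ replicate 3, 10 without WT KIT+ replicate 2 and 11 without WT THY1+ replicate 3. Tgfbr2, the type II receptor of TGF-beta, was at 13.4, 13 and 9.20 FPKM in THY1+ and 1.45, 3.62 and 2.07 FPKM in KIT+ libraries. Macrophage and stromal sums fell in the same libraries, and their part in the fall of Tgfbr2 was not tested. Bmpr1b, a BMP receptor, fell by 1.097 (SE 0.16, adjusted p 0.000487), and Nkd2, an inhibitor of WNT signalling, rose by 0.93 (SE 0.13, adjusted p 0.000287). Ctnnb1, the gene of beta-catenin and the most abundant member, was not a call at 131 ± 6.76 and 121 ± 12.4 FPKM. Of 23 Notch and Hedgehog genes 3 were lower (13%) and 1 was higher (4.3%), neither above the share of all genes, and the number lower was 6 without WT KIT+ replicate 2, 5 without WT THY1+ replicate 3 and 1 without any other single WT library. Without WT THY1+ replicate 1 there were 2 higher. The Notch ligand gene Dll3 was at 0.300 ± 0.0565 and 1.26 ± 0.581 FPKM and was called higher, in the THY1+ and KIT+ libraries respectively.

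Differentiation factors rose in a small number of cases. Of 16 tested, 4 were called higher and 0 lower (limma), 25.0% against 7.21% of all genes, and the median change of 0.11 was near zero. The 4 were Dmrtb1, Rhox13, Ovol1 and Stra8, and all 4 were calls whichever WT library was left out. One gene was lower without WT THY1+ replicate 3. Dmrtb1, a DM domain factor that controls the choice between mitosis and meiosis, was at 2.23, 3.34 and 2.50 FPKM in THY1+ and 18, 13.8 and 11.2 FPKM in KIT+ libraries. Stra8, which retinoic acid induces before meiosis, was at 44.1, 48.7 and 66.0 FPKM and at 130, 90.7 and 123 FPKM. Dmrtb1 rose by 2.37 (SE 0.26, adjusted p 6.60e-05) and Stra8 by 1.11 (SE 0.21, adjusted p 0.00258) on the log2 scale. Rhox13, an X-linked homeobox gene of differentiating germ cells, was at 15.4 ± 2.64 and 40.8 ± 10.6 FPKM, and Ovol1, a zinc finger repressor, at 0.713 ± 0.0657 and 1.98 ± 0.194 FPKM. Dmrt1, which is active in both stages, was at 110 ± 2.79 and 121 ± 6.09 FPKM and was not a call.

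Retinoic acid genes were higher in 5 of 20 cases (25% against 7.21% of all genes), with a median log2 change of 0.30. Lower in this list was 1 gene (2 without WT KIT+ replicate 2 or WT THY1+ replicate 3). Crabp1, a cytoplasmic retinoic acid-binding protein, was at 49.8, 50.1 and 70.0 FPKM in THY1+ and 214, 136 and 182 FPKM in KIT+ libraries. Its relative Crabp2 was at 0.900 ± 0.193 and 1.91 ± 0.390 FPKM, and the retinol carrier Rbp4 rose by 1.40 (SE 0.29, adjusted p 0.00434). Aldh1a1, which makes retinoic acid, was at 57.8, 39.99 and 40.5 FPKM and at 425, 493 and 538 FPKM. Its rise of 3.41 (SE 0.18, adjusted p 2.12e-07) was close to the Leydig list's median of 3.38, and the part of the Leydig cell genes in it was not tested. Cyp26b1, which degrades retinoic acid, spanned 7.42 to 17.3 FPKM in THY1+ and 14.1 to 46.4 FPKM in KIT+ libraries, and the groups overlapped.

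The promoters of Kit and Stra8, which rose, and of Gfra1, which fell, are shown to place these genes in the genome. Each window spans a RefSeq transcript start in GRCm38.p6, mostly upstream of it, and is read 5′ to 3′ on the gene's strand. Capitals mark the E-box CANNTG, a site of basic helix-loop-helix factors such as those that ID proteins inhibit, and the half-site AGGTCA, which retinoic acid and other nuclear receptors bind, on either strand. The windows are chr5:75574737-75575036 (plus strand) for Kit, chr6:34920698-34920997 (plus strand) for Stra8 and chr19:58455349-58455648 (minus strand) for Gfra1.
Kit: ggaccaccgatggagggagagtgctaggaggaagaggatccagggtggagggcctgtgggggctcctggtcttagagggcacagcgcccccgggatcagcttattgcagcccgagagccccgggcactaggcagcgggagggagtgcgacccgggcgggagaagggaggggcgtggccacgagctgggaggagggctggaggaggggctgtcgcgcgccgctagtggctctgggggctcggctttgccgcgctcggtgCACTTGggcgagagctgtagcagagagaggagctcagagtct
Stra8: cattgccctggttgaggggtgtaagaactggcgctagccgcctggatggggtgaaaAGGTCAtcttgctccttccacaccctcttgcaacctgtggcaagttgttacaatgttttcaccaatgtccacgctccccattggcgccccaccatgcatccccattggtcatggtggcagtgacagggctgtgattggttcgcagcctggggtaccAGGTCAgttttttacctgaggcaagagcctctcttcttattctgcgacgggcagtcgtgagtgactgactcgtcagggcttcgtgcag
Gfra1: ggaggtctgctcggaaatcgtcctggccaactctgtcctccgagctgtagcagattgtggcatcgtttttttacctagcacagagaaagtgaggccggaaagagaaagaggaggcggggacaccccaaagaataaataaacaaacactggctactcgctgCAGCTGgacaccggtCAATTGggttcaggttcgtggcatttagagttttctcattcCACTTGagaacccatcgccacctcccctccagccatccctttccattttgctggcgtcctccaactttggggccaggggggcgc
The Kit window held 1 E-box and 0 half-sites, the Stra8 window 0 E-boxes and 2 half-sites, and the Gfra1 window 3 E-boxes and 0 half-sites. Among the 13254 tested genes with a promoter in the RefSeq table, 69.7% held an E-box and 15.8% the half-site. Of the 14 uSPG factors called lower that had a window, 8 held an E-box and 1 the half-site. Of 6 differentiation and retinoic acid genes called higher, 4 held an E-box and 1, Stra8, the half-site. A match describes the letters only.

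Other factor families were counted by symbol. ETS genes were lower in 9 of 20 cases (45% against 14.0% of all genes) and higher in 0 (limma). Among them was Fli1 (6.58 FPKM on average in THY1+ and 0.788 FPKM in KIT+ libraries), a factor of blood and endothelial cells. STAT genes were lower in 5 of 7 cases (71.4%) and higher in 0 (limma). The number lower was 2 without WT KIT+ replicate 3 or WT THY1+ replicate 1 and 3 without WT KIT+ replicate 1 or WT THY1+ replicate 2. KLF and SP zinc finger genes were lower in 4 of 25 cases and higher in 0 (limma, 1 higher without WT KIT+ replicate 1), after 3 nuclear body genes with SP symbols (Sp100, Sp110 and Sp140) were set aside. The share lower was near the 14.0% of all genes. Klf3 fell by 1.17, while Stat3, which carries cytokine signals, fell by 0.94 (SE 0.22, adjusted p 0.00716). Forkhead genes gave 9 lower and 3 higher of 29 (31.0% and 10.3%, against 14.0% and 7.21% of all genes). Foxf1, known from mesenchyme, was at 23.2, 16.2 and 14.6 FPKM in THY1+ and 2.80, 4.64 and 3.24 FPKM in KIT+ libraries. ZBTB genes gave 1 call of 40, Zbtb16 itself, with 3 lower without WT KIT+ replicate 2 or WT THY1+ replicate 3 and 1 higher without either of these or WT THY1+ replicate 2. E2F genes gave 0 calls of 8 (limma, 2 at an unadjusted p under 0.05, and 1 call higher without WT KIT+ replicate 2).

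Some factors rose. In the LIM and POU homeobox family 3 of 18 genes were higher (16.7% against 7.21% of all genes) and 8 lower (44.4% against 14.0%). The number lower fell to 4 without WT KIT+ replicate 3 or WT THY1+ replicate 2. The LIM homeobox gene Lhx8 was at 1.61, 1.45 and 1.43 FPKM in THY1+ and 6.67, 4.74 and 5.14 FPKM in KIT+ libraries. Lhx8 and Lhx6, another LIM homeobox gene, rose by 1.80 and 1.32 on the log2 scale (SE 0.25 and 0.16). Tbx1, a T-box gene, was at 1.16, 0.787 and 0.772 FPKM and at 6.34, 3.28 and 2.82 FPKM, with WT KIT+ replicate 1 the highest. Of 12 T-box genes it was the only 1 called higher (8.3%), and 3 were lower (25% against 14.0% of all genes). The number lower was 2 without WT KIT+ replicate 2 or 3 or WT THY1+ replicate 1 or 3. In the nuclear receptor family 8 of 43 genes were higher (18.6% against 7.21% of all genes) and 6 lower (14.0%, the share of all genes). Nr5a1, the master factor of steroid-producing cells, was at 5.15 ± 1.09 and 25.1 ± 12.9 FPKM, and its relative Nr5a2 was lower at 6.12 FPKM on average in THY1+ and 2.24 FPKM in KIT+ libraries. Zinc finger genes with Zfp symbols gave 19 calls in each direction among 352, 5.4% each way, which is below the share of all genes. Zfp809, which targets proviral DNA for silencing, was at 5.61, 5.75 and 5.61 FPKM in THY1+ and 14.6, 12.8 and 11.2 FPKM in KIT+ libraries.

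The KIT, PI3K and mTORC1 list held 1 gene called higher, Kit itself, and 5 lower of 22 (22.7% against 14.0% of all genes). Pik3ca, the widely expressed catalytic subunit of PI3K, was at 22.5, 21.3 and 21.7 FPKM in THY1+ and 10.2, 12.5 and 11.1 FPKM in KIT+ libraries. Pik3cd, the subunit known from leukocytes, was at 11 ± 2.96 and 3.03 ± 0.592 FPKM beside the fall of the macrophage genes. Sesn1, an inhibitor of mTORC1, was at 30.0 ± 4.37 and 13.6 ± 1.86 FPKM, which is a fall of 1.14 on the log2 scale (SE 0.14, adjusted p 0.000157). Eif4ebp1, the translation repressor that mTORC1 phosphorylates, overlapped between the fractions at 53.5 ± 10.8 and 59.1 ± 7.87 FPKM.

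Among cell cycle genes, Ccnd2, the D cyclin of self-renewing spermatogonia, was at 60.8, 66.2 and 49.0 FPKM in THY1+ and 15.9, 26.1 and 17.7 FPKM in KIT+ libraries. The CDK inhibitors Cdkn1a and Cdkn1c were at 2.37 ± 0.256 and 21.0 ± 3.22 FPKM in THY1+ and at 0.745 ± 0.262 and 11.5 ± 2.87 FPKM in KIT+ libraries, and all 3 genes were called lower. Ccne2, a cyclin of the G1 to S step, was at 18.6, 16.7 and 19.2 FPKM and at 59.1, 26.0 and 33.5 FPKM, a rise of 1.03 (SE 0.27, adjusted p 0.0134). In the whole list of D cyclins, CDKs and inhibitors 3 genes were higher and 4 lower of 20. These are 15% and 20%, against 7.21% and 14.0% of all genes. Of 41 DNA replication genes 1 was higher, the licensing inhibitor Gmnn (35.5 ± 6.52 and 62.6 ± 9.54 FPKM), and 1 lower, Pola1, and of 38 mitosis genes 0 were calls (limma, 9 at an unadjusted p under 0.05, and 1 call higher without WT KIT+ replicate 2 or WT THY1+ replicate 3). The count of replication genes called higher was 4 without WT KIT+ replicate 2 or WT THY1+ replicate 3 and 2 without WT KIT+ replicate 3 or WT THY1+ replicate 2. The proliferation marker Mki67 was at 82.7 ± 10.01 and 87.0 ± 6.16 FPKM.

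**Figure D4:**
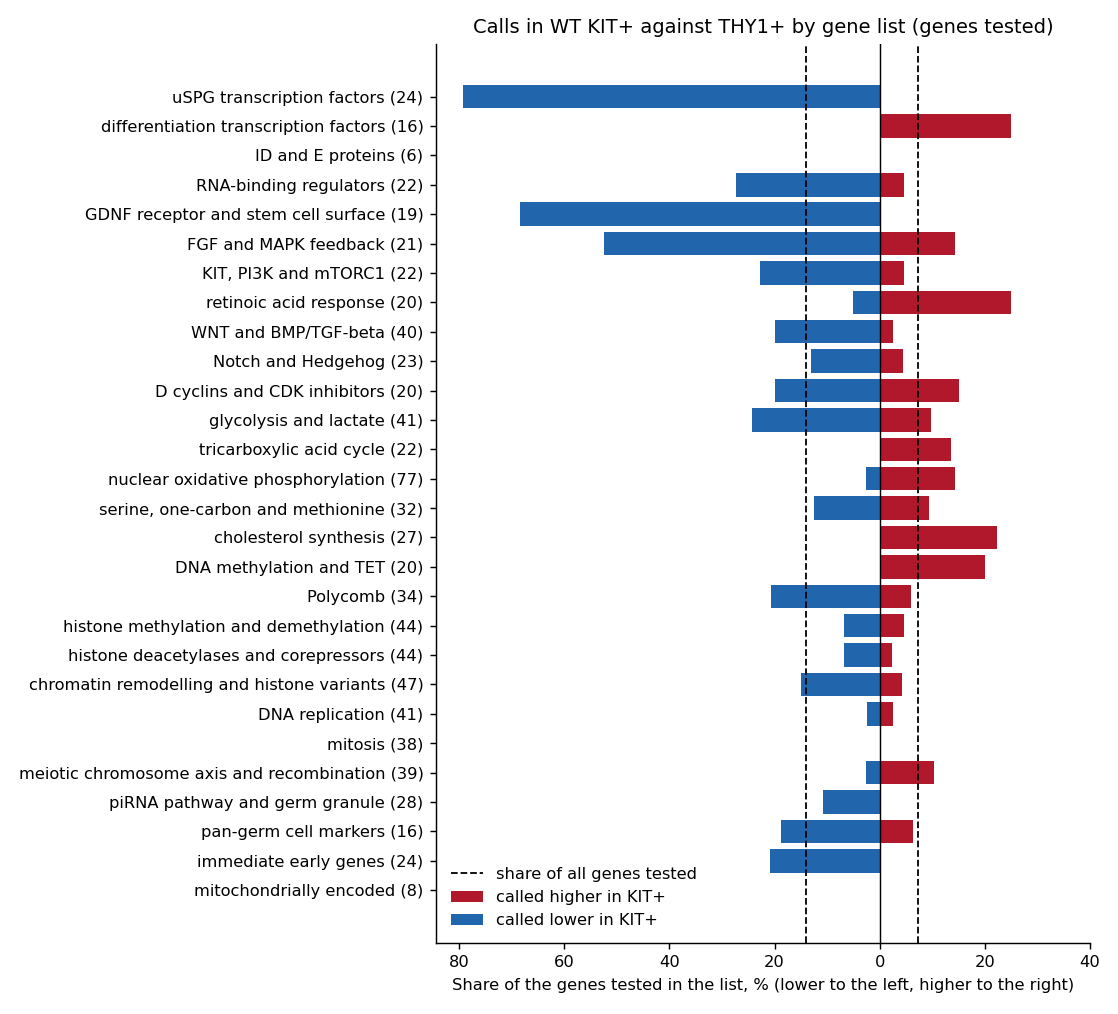
Bars give the share of the tested genes of each list, in %, called higher (right) or lower (left) in WT KIT+ against THY1+. Dashed lines mark the share of all genes, 7.21% and 14.0%. The marker lists of other cell types are not drawn. Among the lists drawn, the uSPG factors, the GDNF receptor and surface genes and the FGF and MAPK feedback genes extend furthest to the left. The differentiation factors and retinoic acid genes extend furthest to the right.

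Glycolysis genes were lower in 10 of 41 cases (24.4% against 14.0% of all genes) and higher in 4 (9.8% against 7.21%). The number higher was 2 without WT KIT+ replicate 2. Pkm, which encodes pyruvate kinase, was at 127, 134 and 124 FPKM in THY1+ and 46.6, 77.9 and 64.7 FPKM in KIT+ libraries. Pdk1, a kinase that inhibits pyruvate dehydrogenase, was at 23.8, 24.6 and 26.4 FPKM and at 5.67, 9.75 and 9.64 FPKM. The glucose transporter Slc2a1 fell by 1.09 (SE 0.14, adjusted p 0.00014) and the lactate transporter Slc16a7 by 1.39 (SE 0.31, adjusted p 0.00623). Hk3, a hexokinase of myeloid cells, fell by 3.23 beside the macrophage genes. Aldoa (83.2 ± 3.32 and 71.3 ± 12.2 FPKM) overlapped between the fractions.

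Mitochondrial genes leaned the other way. Of 77 nuclear genes of oxidative phosphorylation 11 were called higher and 2 lower, 14.3% against 7.21% of all genes for the former, and 71 had a positive log2 change with a median of 0.34. The number higher was 6 without WT THY1+ replicate 1, 7 without WT THY1+ replicate 2 and 17 without WT THY1+ replicate 3, and the number lower was 1 without WT KIT+ replicate 2 or 3 or WT THY1+ replicate 1 or 2. Ndufa1, a complex I subunit, was at 34.6, 31.3 and 42.0 FPKM in THY1+ and 79.3, 57.4 and 73.4 FPKM in KIT+ libraries. Ndufa12 of the same complex rose by 0.84 (SE 0.15, adjusted p 0.00143), whereas Cox4i2, an oxygen-sensitive isoform of a complex IV subunit, fell by 1.61 (SE 0.26, adjusted p 0.00082). Of the 77 genes 60 had merged exons of at most 3002 bases, and 3 had merged exons of at least 5546 bases. Over all protein-coding genes, those of at most 3002 bases had a median change of 0.07 and those of at least 5546 bases one of -0.10, and the part of length in the change was not tested. The 8 mitochondrially encoded genes tested gave 0 calls (limma, 0 at an unadjusted p under 0.05). The tricarboxylic acid cycle list, which also holds cytosolic isoforms, had 3 of 22 genes higher (13.6% against 7.21% of all genes) and 0 lower (limma). These were the cytosolic Idh1 by 0.79, Suclg2 by 0.78 and Dld by 0.67 (SE 0.17, 0.13 and 0.12).

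Cholesterol synthesis genes were higher in 6 of 27 cases (22.2% against 7.21% of all genes) and lower in 0 (limma, 1 without WT KIT+ replicate 2 or WT THY1+ replicate 3). The number higher was 2 without WT KIT+ replicate 3 and 3 without WT KIT+ replicate 2 or WT THY1+ replicate 1. Tm7sf2 and Sc5d, late enzymes of the route, were at 1.94 ± 0.289 and 17.9 ± 3.87 FPKM in THY1+ and 4.02 ± 0.311 and 32.3 ± 3 FPKM in KIT+ libraries. Leydig cells make steroids from cholesterol and their genes rose in the same libraries, and their part in these changes was not tested. One-carbon and serine genes gave 3 higher and 4 lower of 32 (9.4% and 12.5%), near the shares of all genes (7.21% and 14.0%). Folr1, a folate receptor, was at 1.53, 1.29 and 1.21 FPKM in THY1+ and 16.2, 17.05 and 19.4 FPKM in KIT+ libraries, the largest rise of the list at 3.61 (SE 0.13, adjusted p 2.04e-08) and in the range of the Leydig cell genes. Mtr, methionine synthase, was at 78.3 ± 16.9 and 41.3 ± 6.93 FPKM, and Gldc, of the glycine cleavage system, at 4.33 ± 0.658 and 2.27 ± 0.6 FPKM.

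Among chromatin genes, those of DNA methylation and demethylation were higher in 4 of 20 cases (2 with a pseudocount of 1) and lower in 0 (limma). The share higher was 20% against 7.21% of all genes. The genes called higher were Gadd45a, Gadd45b, Gadd45g and Dnmt3b. The list's median log2 change was -0.17, and 11 of the 20 genes had a negative change. Gadd45g, a stress sensor linked to demethylation, was at 4.08, 3.06 and 3.78 FPKM in THY1+ and 9.48, 12.6 and 16.0 FPKM in KIT+ libraries. Its relative Gadd45b rose by 1.28 (SE 0.31, adjusted p 0.00941). Dnmt3b, a de novo methyltransferase, was at 16.6 ± 2.53 and 25.2 ± 2.58 FPKM, and its change of 0.60 stood close to the 1.5-fold limit and was not a call without WT KIT+ replicate 2 or WT THY1+ replicate 3. The maintenance methyltransferase Dnmt1 (70.3 ± 13.5 and 59.7 ± 7.89 FPKM) overlapped between the fractions.

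Polycomb genes were lower in 7 of 34 cases (20.6% against 14.0% of all genes) and higher in 2 (5.9% against 7.21%). The number higher was 1 without WT KIT+ replicate 1. Pcgf6, a subunit of a germ cell Polycomb complex, was at 28.4, 27.9 and 32.1 FPKM in THY1+ and 10.03, 14.5 and 13 FPKM in KIT+ libraries. Kdm2b, which recruits such complexes to CpG islands, and Cbx7, which reads their histone mark, fell by 1.21 and 1.11 (SE 0.19 and 0.15, adjusted p 0.000683 and 0.000271). Histone methylation genes gave 2 higher and 3 lower of 44, and deacetylase and corepressor genes 1 higher and 3 lower of 44, shares below those of all genes. Leaving out single WT libraries gave 1 to 8 lower genes in the latter list (8 without WT KIT+ replicate 2, 7 without WT THY1+ replicate 3 and 1 without WT THY1+ replicate 1). Leaving out WT KIT+ replicate 1 or WT THY1+ replicate 1 left 1 higher gene in the former, and leaving out WT THY1+ replicate 3 gave 5 lower ones. Kmt2c, a histone H3 methyltransferase, was at 29.1, 29.0 and 28.4 FPKM and at 13.4, 17.1 and 14.6 FPKM, which is a fall of 0.94 on the log2 scale (SE 0.10, adjusted p 5.10e-05). Kdm3a, a demethylase, fell by 0.82 (SE 0.10, adjusted p 8.31e-05) and Hdac9, a deacetylase, by 1.52 (SE 0.18, adjusted p 9.74e-05).

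Remodelling and histone variant genes were lower in 7 of 47 cases and higher in 2 (4 without WT KIT+ replicate 2), and the 14.9% lower and 4.3% higher were near or below the shares of all genes. Chd7 and Arid2, subunits or motors of remodelling machines, fell by 1.17 and 1.13 (SE 0.16 for each). The testis histone gene Hist1h2ba rose most, at 196, 216 and 249 FPKM in THY1+ and 1823, 437 and 582 FPKM in KIT+ libraries. WT KIT+ replicate 1 stood far above the others of its group, and the log2 change was 1.82 (SE 0.46, adjusted p 0.0121). The same library led for H2afx, the histone phosphorylated at DNA breaks, at 431 FPKM against 239 and 217 FPKM, but that gene was not a call (adjusted p 0.0598).

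Meiotic genes were near the threshold. Of 39 tested, 4 were called higher (10.3% against 7.21% of all genes) and 1 lower (2.6% against 14.0%). The number higher was 0 without WT KIT+ replicate 1, 9 without WT KIT+ replicate 2, 1 without WT THY1+ replicate 1 and 2 without any other single WT library. The genes called higher were Syce2, Mei4, Mei1 and Ccnb1ip1, and the one lower was Spo11, which makes the breaks that start recombination. The numbers lower ran from 0 (without WT KIT+ replicate 3 or WT THY1+ replicate 3) to 4 (without WT KIT+ replicate 1), with 2 without WT THY1+ replicate 2. Prdm9, the methyltransferase that places recombination hotspots and a member of the histone methylation list, was at 1.002, 0.997 and 0.807 FPKM in THY1+ and 6.94, 2.16 and 2.88 FPKM in KIT+ libraries, a rise of 1.81 (SE 0.35, adjusted p 0.00269). Sycp3, a protein of the chromosome axis, was already at 73.2, 59.9 and 83.7 FPKM in THY1+ and at 157, 87.1 and 115 FPKM in KIT+ libraries. These groups did not overlap, yet the change of 0.70 was not a call (SE 0.26, adjusted p 0.0627).

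In the piRNA and germ granule list 3 of 28 genes were lower and 0 higher (limma), 10.7% against 14.0% of all genes for the former. Of the 28 genes 14 had an unadjusted p under 0.05, and the list's median log2 change was -0.22. Piwil4, a nuclear PIWI protein that directs transposon silencing, was at 8.82, 7.35 and 7.14 FPKM in THY1+ and 3.42, 4.11 and 3.61 FPKM in KIT+ libraries, and Tdrd5 and Morc1 fell by 1.03 and 0.83. Mael, at 242 ± 32.8 and 223 ± 24.3 FPKM, overlapped. Of 16 pan-germ cell genes 3 were lower, 18.8% against 14.0% of all genes, and 1 was higher. Dppa4, known from pluripotent cells, fell by 1.35 (SE 0.15, adjusted p 6.87e-05), while Dppa3, known from primordial germ cells, was at 0.372, 0.187 and 0.286 FPKM and at 2.36, 1.31 and 1.82 FPKM. The abundant Uchl1 was at 209 ± 14.2 and 234 ± 32.2 FPKM.

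Immediate early genes, which respond within minutes to stimulation and to tissue dissociation, were lower in 5 of 24 cases and higher in 0 (limma). The share lower was 20.8% against 14.0% of all genes. Leaving out WT KIT+ replicate 1 gave 2 higher and WT KIT+ replicate 2 gave 1. Atf3 was at 12.9, 10.8 and 16.9 FPKM in THY1+ and 1.36, 1.13 and 1.62 FPKM in KIT+ libraries, and Klf6 and Ier3 fell by 1.77 and 1.99 (SE 0.23 and 0.26). Fos overlapped between the fractions at 112 ± 16.3 and 115 ± 49.8 FPKM. A role of cell handling in these values was not tested.

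The same contrast was made in the null mice, whose 6 libraries are separate from the WT ones. There 29.2% of genes were calls, 13.2% higher and 16.0% lower in KIT+ dSPG, and 48.6% did not overlap between the fractions. Of the 19 uSPG factors that fell in WT, all 19 were also called lower in null mice, and the list's median log2 change was -1.50. Of the 13 GDNF receptor and surface genes 9 were lower in both, with Gfra1 at -2.71 and Ret at -2.74 in null mice. Over all genes tested, 2077 of the 3123 called lower in WT were also called lower in null mice. The share of the surface genes was near that of all genes. Dmrtb1 changed by 2.56 and Kit by 1.92 in null mice. Stra8 (1.11 in WT and 0.36 in null mice) and Crabp1 (1.64 and 0.89) had lower estimates there. The difference was not a call for either (limma, adjusted p 0.176 and 0.206), but was one with the replicate number as a block (adjusted p 0.0342 and 0.0397). For the difference of the changes 7 of 22374 genes, 0.0313%, were calls, 0.0268% with the larger value in WT and 0.00447% with the larger in null mice. This count was unstable, at 2756 with the replicate block, 45 with a pseudocount of 1, 2 with median ratio scaling, 867 without null KIT+ replicate 1 and 1 or 2 without any other single library. One of the 7 was a list member, the meiotic ubiquitin ligase gene Ccnb1ip1, at 8.48, 8.61 and 8.65 FPKM in WT THY1+ and 15.3, 11.8 and 13.2 FPKM in WT KIT+ libraries, which changed by 0.63 in WT and -0.68 in null mice. It lost its WT call without WT KIT+ replicate 1. The piRNA list had 18 of 28 genes lower in null mice against 3 in WT, and immediate early genes 13 of 24 higher against 0, with 0 calls for the difference in either list without the block and 11 and 18 with it (limma). Meiotic genes gave 0 higher and 12 lower of 39 in null mice (limma), against 4 and 1 in WT. FGF and MAPK genes were lower in 5 of 21 cases (11 in WT) and stromal genes in 1 of 16 (9 in WT). WNT and BMP/TGF-beta genes gave 8 higher and 3 lower of 40 (1 and 8 in WT). In that order, calls for the difference were 1, 0, 0 and 0 without the block and 13, 4, 11 and 5 with it. All 20 macrophage genes were lower in both. Leydig sums were 115 to 144 FPKM in null THY1+ and 2636 to 3967 FPKM in null KIT+ libraries.

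**Figure D5:**
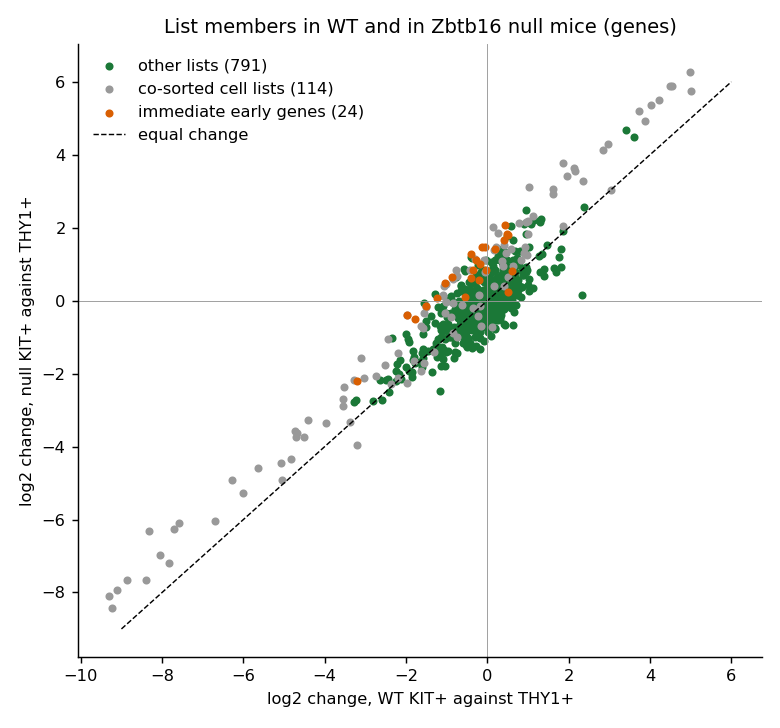
Points are members of the fixed lists, with the log2 change of KIT+ against THY1+ in WT libraries on the x axis and in null libraries on the y axis, and the dashed line marks equal change. The 114 genes of other cell types span the widest range, the 791 others a narrower one, and the immediate early genes lie mostly above the dashed line.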

How the data were processed

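RNA of THY1+ and KIT+ spermatogonia was sequenced as stranded, ribosomal RNA-depleted single reads. The authors aligned these to mm10 with Novoalign, and the deposited values are FPKM that the authors computed with USeq. Reads with several alignments were kept at many positions, so genes with near-identical copies, pseudogenes and small RNAs carry uncertain values. Whether counting used the strand was not given in the sources used here. The authors tested counts with DESeq2. FPKM are not counts, so limma 3.58.1 (R 4.3.3) was used here on log2(FPKM + 0.1), which understates the change of low genes.

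The genes tested were those whose FPKM averaged 0.1 or more across the 12 libraries of the set, 22374 of 23177 listed. One model with 4 group means was fitted (lmFit, eBayes with trend and robust settings) and tested for KIT+ against THY1+ in WT, in null, and for the WT change less the null change. The fit uses the spread of all 12 libraries, WT and null. Replicate libraries are taken as separate isolations from the labels, which name no animals, so p-values measure the spread between these libraries. Same-numbered libraries of different groups mostly correlated, as given in the last section, and the main fit does not account for this. Depth was estimated from the FPKM of 1 read, found from low genes whose values are whole multiples (within 0.02) of a unit, with GENCODE M21 exon lengths. A gene with at most 3 reads in each library of a group was given a fold against 3 reads, a lower bound.

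A total of 37 gene lists (948 entries, of which 933 matched a gene, 5 of them by gene ID) and 18 families by symbol were counted without a set test. From the KLF and SP family, 7 of 28 lower by symbol, 3 nuclear body genes were set aside after the counts were seen. The members, lists and naming rule were chosen with earlier results of these data known. Genes named are Thy1, Kit and Zbtb16, the 10 largest calls in each direction (at least 1 FPKM in the higher group, groups not overlapping) with and without the lists of other cell types, the 5 largest calls of each list and family, and the 3 most abundant members of each list. The cell type markers Csf1r, Cd3e, Sox9, Amh and Wt1, and Fgfr2, Fgfr3, Fgfr4, Mapk3, Lin28b, Hdc and Rn7sk fall outside the rule and were chosen after their values were seen. Alternatives were pseudocounts of 1 and 0.01, no filter, a filter at 1 FPKM, median ratio scaling, a replicate block, the libraries of a contrast alone, and leaving out each library.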

Additional observations from a re-analysis of the deposited data

Results flagged for a closer look

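The change from THY1+ uSPG to KIT+ dSPG differed between WT and null mice for 7 genes by the test of the difference itself (limma, adjusted p of at most 0.05 and at least 1.5-fold), of 22374 tested. At an unadjusted p under 0.05 there were 5014. The count was 2756 with the replicate block, 45 with a pseudocount of 1, 867 without null KIT+ replicate 1 and 1 or 2 without any other single library. Dgka, a diacylglycerol kinase, changed by -0.25 in WT and -1.48 in null mice, a difference of 1.23 (SE 0.11, adjusted p 0.00413), and it was a call in all 18 alternative fits. Its level was 9.73 ± 0.396 FPKM in WT THY1+, 8.19 ± 0.527 FPKM in WT KIT+, 32.4 ± 0.790 FPKM in null THY1+ and 11.6 ± 0.360 FPKM in null KIT+ libraries. Syt12, a synaptotagmin, had a difference of 1.74 (adjusted p 0.0409), with 0.539 ± 0.0374 and 0.534 ± 0.0222 FPKM in the WT fractions and 4.43 ± 0.618 and 1.25 ± 0.186 FPKM in the null fractions. Ccnb1ip1 had a difference of 1.31 (adjusted p 0.0409), Tmc7 of 1.01 (adjusted p 0.0300), Ncbp1, the larger subunit of the nuclear cap-binding complex, of 0.96 (adjusted p 0.0409) and Gm7221 of 0.89 (adjusted p 0.0409). The pseudogene Gm13168, at most 0.518 FPKM on average in any group, had a difference of -2.62 (adjusted p 0.0409). Tmc7 was called in 8 of the 18 alternative fits, Gm7221, Ccnb1ip1, Syt12 and Ncbp1 in 6 and Gm13168 in 4. For Dgka, Tmc7, Gm7221, Syt12 and Ncbp1 the WT change lay between -0.25 and 0.02 on the log2 scale.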

How the results depend on the processing

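Of the 218 named genes called in WT KIT+ against THY1+, 177 were called under all 13 alternatives that could be fitted with them, and 0 changed sign. The rule that named the largest calls asks for groups without overlap. It favours calls that hold and leaves little room for a change of sign. Of all calls in WT, 60.6% were kept with a pseudocount of 1, 78.3% to 89.1% without 1 WT library and 99.9% with the replicate block. The count of calls was 4737 (1614 higher and 3123 lower). With a pseudocount of 1 it was 2883 (938 higher and 1945 lower), and with a mean of at least 1 FPKM it was 3139 (2025 lower), where fewer genes, 16524, were tested. Leaving out 1 WT library gave 3895 to 4869 calls. In null mice 6532 calls became 4070 with a pseudocount of 1 and 4332 with the filter at 1 FPKM. The 7 calls for the difference became 45 with a pseudocount of 1, 2 with median ratio scaling and 1 to 867 without 1 library (867 without null KIT+ replicate 1, and 1 or 2 without any other). Same-numbered WT libraries had deviations that correlated at 0.0702, 0.381 and 0.325 across genes. The main fit was not blocked, so its p-values leave out a link between same-numbered libraries that most pairs show. Same-numbered null libraries correlated at 0.315 to 0.519, and WT KIT+ with null KIT+ libraries at 0.362 to 0.52. Over all groups 16 of 18 same-numbered pairs passed 0.1, against 5 of 36 others. With the replicate block there were 5399 calls in WT, 7071 in null mice and 2756 for the difference. WT THY1+ replicates 2 and 3 each correlated best with the WT KIT+ library of their own number. WT THY1+ replicate 1 was at 0.0702 with WT KIT+ replicate 1 and at 0.0698 with WT KIT+ replicate 2. Among WT THY1+ libraries, WT KIT+ replicate 1 correlated best with replicate 3, at 0.147. List counts stayed within 1.5 times the reported ones in 855 of 962 refits. These include counts of 0 that stayed at 0, such as macrophage genes called higher, so the share overstates the stability of the other counts. With 3 libraries a group, genes under 1 FPKM rest on few reads, and the added 0.1 understates their change. The causes of these shifts were not tested.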
